A study of Rattus norvegicus with 12 samples.

Results

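Carnitine acyltransferase shuttle genes were described in the livers of overfed rats through the probe sets whose platform annotation gave Cpt1a, Cpt2, Crot or Slc25a20 and no other symbol. The rule found 5 of the 8740 tested probe sets, with 2 for Crot and 1 for each of the other genes, and 4 of the 4736 named genes. All 5 entered every test, since no filter on low values was applied.

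Liver RNA was measured on 12 single-colour Affymetrix arrays, with 3 arrays for each of 4 diets: 70% corn oil, 5% corn oil, 70% olive oil and 5% olive oil. All animals were male Sprague-Dawley rats that weighed 150 g at the start, carried a gastric cannula and received 17% excess calories by total enteral nutrition, a liquid diet infused into the stomach, for 21 days. Their age was not given in the sources used here. Corn oil is rich in polyunsaturated and olive oil in monounsaturated fatty acids. The diets were isocaloric, so more fat also meant less carbohydrate, and the rats of all 4 diets were overfed. The labels describe each array as a pool and do not say how many livers it held, and the spread that the p-values measure is therefore that between pools. The comparisons address how the amount and the kind of dietary fat bear on liver transcripts.

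Long-chain fatty acids cannot cross the inner mitochondrial membrane as coenzyme A esters and are carried as carnitine esters. Cpt1a, the liver form of carnitine palmitoyltransferase 1, makes acylcarnitine at the outer membrane and is inhibited by malonyl-CoA. Slc25a20 is the inner membrane carrier that exchanges acylcarnitine for free carnitine, and Cpt2 on the matrix side restores the acyl-CoA for beta-oxidation. Crot, carnitine O-octanoyltransferase, acts in peroxisomes, where it makes medium-chain acylcarnitines from shortened fatty acids so that they can leave for the mitochondrion. Genes of fatty acid oxidation in the liver are well-known targets of the nuclear receptor PPARA, which binds DNA with a retinoid X receptor.

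The sequence upstream of each gene is shown because these genes are compared as a set. Each line gives the 250 bases before the annotated transcript start, 5′ to 3′ on the gene's strand, from RefSeq on build GRCr8, where all 4 genes had an entry. The windows were chr1:209995910-209996159 on the plus strand for Cpt1a, chr5:127910819-127911068 on the minus strand for Cpt2, chr8:118243323-118243572 on the plus strand for Slc25a20 and chr4:26052874-26053123 on the plus strand for Crot. Capitals mark GGGCGG on either strand (CCGCCC where it lies on the other strand), the core of a GC box.
Cpt1a: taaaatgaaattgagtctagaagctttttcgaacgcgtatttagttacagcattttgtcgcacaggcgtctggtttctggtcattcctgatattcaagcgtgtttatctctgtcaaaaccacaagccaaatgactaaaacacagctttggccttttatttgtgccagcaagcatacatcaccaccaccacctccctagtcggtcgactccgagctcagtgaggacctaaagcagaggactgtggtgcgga
Cpt2: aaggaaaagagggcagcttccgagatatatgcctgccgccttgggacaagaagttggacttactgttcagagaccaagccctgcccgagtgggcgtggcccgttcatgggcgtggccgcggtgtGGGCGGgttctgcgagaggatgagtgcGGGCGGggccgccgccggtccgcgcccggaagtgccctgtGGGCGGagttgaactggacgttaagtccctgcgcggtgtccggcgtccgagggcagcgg
Slc25a20: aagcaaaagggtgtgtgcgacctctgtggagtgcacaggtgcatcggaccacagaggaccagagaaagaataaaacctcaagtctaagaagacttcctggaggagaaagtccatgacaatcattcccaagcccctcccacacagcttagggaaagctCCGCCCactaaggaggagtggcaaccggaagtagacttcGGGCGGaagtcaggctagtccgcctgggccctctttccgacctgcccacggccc
Crot: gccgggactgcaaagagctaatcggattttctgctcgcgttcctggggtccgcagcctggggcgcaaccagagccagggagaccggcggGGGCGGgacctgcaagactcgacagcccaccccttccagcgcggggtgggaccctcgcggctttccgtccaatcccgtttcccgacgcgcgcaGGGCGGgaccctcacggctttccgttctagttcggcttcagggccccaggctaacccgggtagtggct

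The motif AGGTCA, a core recognised by many nuclear receptors, was searched on both strands, as was the direct repeat of 2 copies of AGGNCA with 1 base between them, whose copies are the first motif wherever N is T. Neither was found in any of the 4 windows. Of 33469 such windows in the annotation, 14.1% held AGGTCA and 0.368% held the direct repeat. GGGCGG, which was added after the sequences had been seen and does not overlap the other motifs, occurred 3 times upstream of Cpt2, 2 times each upstream of Crot and Slc25a20, and 0 times upstream of Cpt1a, and 30.5% of all windows held it. The Crot and Cpt2 windows were 68.0% and 66.8% G or C, against 56.4% for Slc25a20, 45.6% for Cpt1a and a median of 51.2% over all windows. No match says only that these letters are not in this window.

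Every value below is a log2 difference from the probe set's own median over the 12 arrays, so levels cannot be compared between genes and the liver's identity cannot be checked from absolute marker levels. A 3'/5' index, which averages the 3' minus 5' control probe set differences of actin and GAPDH, separated the oils. It ran from 0.16 to 1.5 on the 6 corn oil arrays and from -0.43 to -0.23 on the 6 olive oil arrays (difference 1.35, two-sided exact permutation p = 0.00216, adjusted 0.0108 over 10 relations, the smallest p this design allows). For 70% minus 5% fat the index difference was -0.56 for corn oil and 0.018 for olive oil, with p of 0.2 and 0.8 in exact permutation tests whose smallest p is 0.1. The closest pair of arrays differed by 0.195 log2 (root mean square), so no array's values were a copy of another's.

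At 70% fat, averaged over both oils, Cpt1a, Cpt2 and both probe sets of Crot rose, while Slc25a20 did not pass the test. The rises were 1.98-fold for Cpt1a, 1.58-fold for Cpt2, and 3.35-fold and 2.59-fold for the Crot probe sets J02844_s_at and U26033_at. Thus 4 of 5 member probe sets rose and 0 fell by limma with an adjusted p under 0.05, where 1.25% of all probe sets rose in this comparison (2.28% changed). The median of the 5 was 0.99, beside 0.01 over all 8740 probe sets. In liver RNA, fewer cells of a type and less RNA per cell cannot be told apart. With the index as a covariate 4 of 5 passed as well, and after a further quantile normalization 3 passed, with Cpt1a at an adjusted p of 0.0516. Of 7 listed endothelial markers 3 were measured, with a median of 0.04: Kdr, a receptor of endothelial cells, fell by 0.56 (-0.56 ± 0.11, adjusted p = 0.0136 over 4736 genes), while Pecam1 at 0.04 ± 0.08 and Vwf at 0.07 ± 0.06 did not pass. Their part in the result was not tested.

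**Figure D1:**
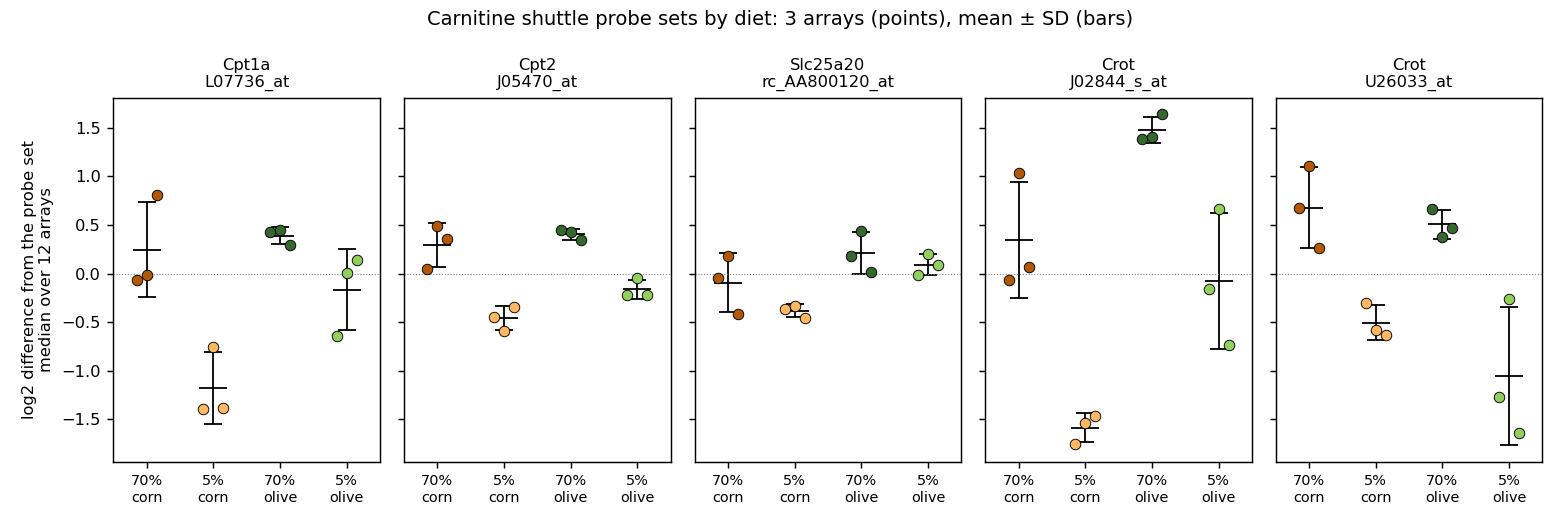
Values of the 5 probe sets on each of the 12 arrays (points, in pool order 1 to 3), as log2 differences from the probe set's median, with the mean and SD of 3 arrays for each diet (bars). The 70% fat arrays lie above the 5% fat arrays of the same oil for Cpt1a, Cpt2 and both Crot probe sets, and overlap them for Slc25a20.

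Cpt1a, which controls the entry of long-chain fatty acids into mitochondria, was lowest with 5% corn oil. Pools 1, 2 and 3 gave -0.07, -0.01 and 0.81 with 70% corn oil, against -1.40, -0.75 and -1.38 with 5% corn oil. They gave 0.43, 0.45 and 0.29 with 70% olive oil, against -0.64, 0.01 and 0.14 with 5% olive oil. The arrays of the fat levels did not overlap within either oil, and pool 3 of 70% corn oil was the highest of all. Cpt1a rose with corn oil by 1.42 ± 0.26 (SE; 2.68-fold, adjusted p = 0.0173). With olive oil the difference was 0.56 ± 0.26 and did not pass (adjusted p = 0.595, 95% interval -0.0022 to 1.11). The means ran in the order 70% olive (0.39 ± 0.09, SD, n = 3), 70% corn (0.24 ± 0.49, SD, n = 3), 5% olive (-0.17 ± 0.42, SD, n = 3) and 5% corn oil (-1.18 ± 0.37, SD, n = 3). Of these neighbours, only the 5% olive and 5% corn arrays did not overlap. At 5% fat all corn oil arrays were below all olive oil arrays for 16.2% of all probe sets, and above them for 25.1%.

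Cpt2, the acyltransferase of the matrix side, had the smallest standard errors of the 5 probe sets. It measured 0.05, 0.49 and 0.36 in pools 1 to 3 of 70% corn oil, against -0.45, -0.59 and -0.34 with 5% corn oil. It measured 0.45, 0.43 and 0.34 with 70% olive oil, against -0.22, -0.05 and -0.22 with 5% olive oil. Every array at 70% fat was thus above every array at 5% fat, whichever the oil. Cpt2 rose with corn oil by 0.76 ± 0.11 (SE; 1.69-fold, adjusted p = 0.00494). With olive oil it was at 0.57 ± 0.11 (SE; adjusted p = 0.0571), just short of the threshold, and it passed with 1 value per gene (adjusted p = 0.0432 over 4736 genes). Over both oils the rise was 0.66 ± 0.08 (adjusted p = 0.000957), rank 24 of 8740 by p. The means were 0.41 ± 0.06 with 70% olive, 0.30 ± 0.23 with 70% corn, -0.16 ± 0.10 with 5% olive and -0.46 ± 0.12 with 5% corn oil (SD, n = 3 each). Of these neighbours only those at 70% fat overlapped. At 5% fat the same separation of the oils, with corn oil lower, held for 16.2% of all probe sets.

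Slc25a20, the carrier that works between those acyltransferases, showed no difference with fat past the test. Its values were -0.05, 0.19 and -0.42 with 70% corn oil, against -0.36, -0.33 and -0.45 with 5% corn oil. They were 0.18, 0.44 and 0.01 with 70% olive oil, against -0.01, 0.20 and 0.09 with 5% olive oil. The arrays of the fat levels overlapped with both oils. The difference was 0.29 ± 0.15 with corn oil (SE; adjusted p = 0.316, 95% interval -0.03 to 0.61) and 0.12 ± 0.15 with olive oil (adjusted p = 0.921, 95% interval -0.20 to 0.44). Over both oils it was 0.20 ± 0.10 (adjusted p = 0.41), and the upper end of its 95% interval was 0.43. The means were 0.21 ± 0.22 with 70% olive, 0.09 ± 0.11 with 5% olive, -0.09 ± 0.31 with 70% corn and -0.38 ± 0.06 with 5% corn oil (SD, n = 3 each), and each mean's arrays overlapped those of its neighbour.

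Crot, the peroxisomal enzyme, had the largest differences with fat among the members when averaged over both oils, on both of its probe sets. J02844_s_at measured -0.07, 1.03 and 0.07 with 70% corn oil, against -1.75, -1.53 and -1.47 with 5% corn oil. It measured 1.39, 1.41 and 1.64 with 70% olive oil, against -0.16, 0.66 and -0.73 with 5% olive oil. The fat levels did not overlap within either oil, while the olive oil arrays lay above the corn oil arrays at each fat level. Such a separation, with corn oil lower, held for 13.4% of all probe sets at 70% fat and 16.2% at 5% fat. J02844_s_at rose with corn oil by 1.93 ± 0.32 (SE; 3.81-fold, adjusted p = 0.0106) and was at 1.56 ± 0.32 with olive oil (adjusted p = 0.066).

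U26033_at measured 0.67, 1.10 and 0.27 with 70% corn oil, against -0.30, -0.58 and -0.63 with 5% corn oil. It measured 0.66, 0.38 and 0.47 with 70% olive oil, against -1.27, -0.27 and -1.64 with 5% olive oil. Here the fat levels again did not overlap within an oil, the lowest arrays were pools 1 and 3 of 5% olive oil, and pool 2 of 5% olive oil lay above all 3 arrays of 5% corn oil. U26033_at rose with olive oil by 1.56 ± 0.29 (SE; 2.95-fold, adjusted p = 0.0405) and was at 1.19 ± 0.29 with corn oil (adjusted p = 0.0573). Averaged over both oils, J02844_s_at rose by 1.74 ± 0.23 (adjusted p = 0.00155), rank 11 of 8740 by size, and U26033_at by 1.37 ± 0.21 (adjusted p = 0.00382). As 1 value per gene Crot rose by 1.56 ± 0.29 with corn oil (adjusted p = 0.0161) and by 1.56 ± 0.29 with olive oil (adjusted p = 0.0359), where 1.52% and 0.211% of genes rose.

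Per oil, 3 of the 5 probe sets rose with corn oil, where 1.3% of all probe sets rose (2.11% changed), and 1 of 5 rose with olive oil, where 0.126% rose (0.435% changed). The arrays of the fat levels did not overlap for 4 of 5 with each oil, all of them higher at 70% fat, as held in the whole table for 8.51% with corn oil and 12.8% with olive oil. For corn oil the median of the 5 was 1.19, beside -0.0075 over all probe sets, and for olive oil it was 0.57, beside 0.03. The calls with corn oil of Cpt1a and Crot J02844_s_at were lost without pool 1 of 5% corn oil (adjusted p = 0.0752 and 0.055), and with the index as a covariate Cpt1a was at 1.65, Cpt2 at 0.60 and J02844_s_at at 1.41, with adjusted p from 0.0726 to 0.175. After a further quantile normalization these calls were lost as well (0 of 5 with corn oil), while 3 of 5 passed with olive oil under either alternative. U26033_at no longer passed with olive oil when any 1 of 9 arrays was left out (adjusted p up to 0.221). With array weights Cpt1a was at 1.10 with corn oil (adjusted p = 0.0576). With corn oil Kdr fell by 0.65 (adjusted p = 0.0441), Pecam1 was at 0.19 and Vwf at 0.09, and the endothelial array means ran from -0.09 to -0.03 at 70% and from 0.02 to 0.13 at 5% fat. The 6 hepatocyte markers had array means from -0.15 to 0.02 with 70% corn oil and from -0.29 to -0.21 with 5% corn oil, with a median difference of 0.16 and 0 past the test by limma (2 at an unadjusted p under 0.05). Markers of Kupffer cells and macrophages, of which 6 of 10 listed were measured and 0 passed with olive oil by limma (4 at an unadjusted p under 0.05), had a median difference of -0.46 there, with array means from -0.33 to -0.04 with 70% olive oil and from 0.02 to 0.37 with 5% olive oil. The part of these markers in the differences within each oil was not tested.

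**Figure D2:**
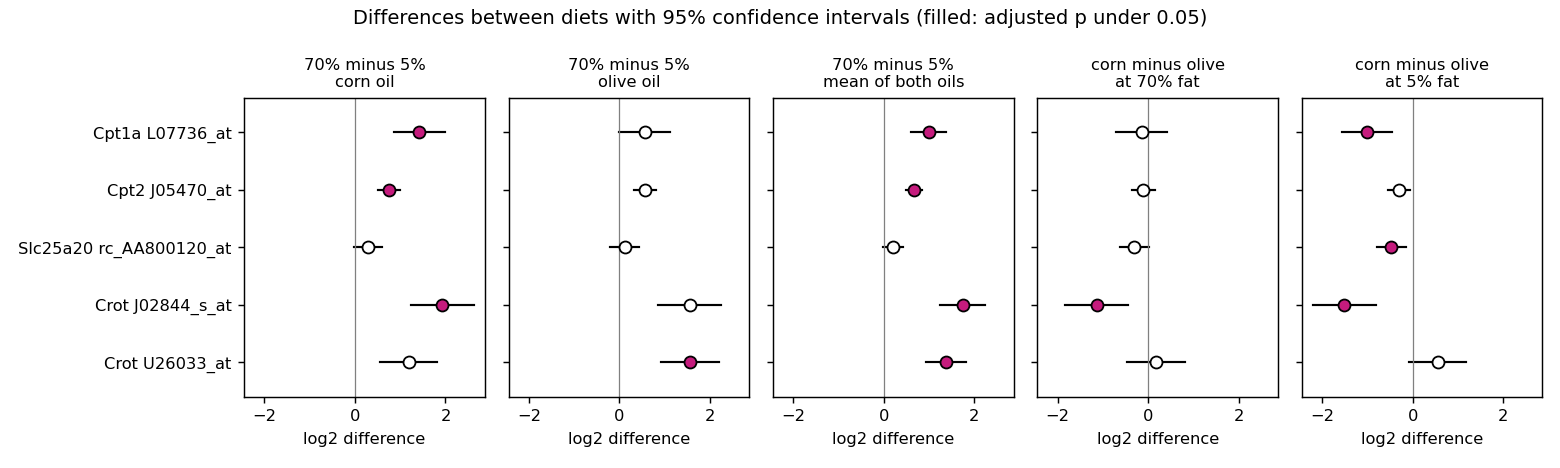
Log2 differences between diets for each probe set with 95% confidence intervals, filled where the adjusted p was under 0.05. Over both oils 4 of 5 probe sets were higher at 70% fat, and the Crot probe sets lie on opposite sides of 0 in both oil comparisons.

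The fat effects of the genes were set against each other through their differences within each array, added as rows to the fit on 1 value per gene after the values had been seen. Over both oils the fat effect of Crot exceeded that of Slc25a20 by 1.36 ± 0.18 (adjusted p = 0.00128 over 4742 rows) and that of Cpt2 was below that of Crot by 0.90 (difference -0.90 ± 0.18, adjusted p = 0.0176). Cpt2 minus Slc25a20 was 0.46 ± 0.11 (adjusted p = 0.055) and Cpt1a minus Slc25a20 was 0.79 ± 0.22 (adjusted p = 0.0996), so neither passed. Cpt1a minus Cpt2 was 0.33 ± 0.19 (adjusted p = 0.475, 95% interval -0.08 to 0.73) and Cpt1a minus Crot was -0.57 ± 0.30 (adjusted p = 0.423). In all, 2 of 6 pairs differed in their fat effect past the test. These errors measure the spread between arrays and not differences between probe sets of the same gene. The 2 Crot probe sets themselves differed in this fat effect by 0.37 ± 0.14 (limma adjusted p = 0.23). Crot minus Slc25a20 also passed within each oil, at 1.27 ± 0.26 with corn oil (adjusted p = 0.0248) and 1.44 ± 0.26 with olive oil (adjusted p = 0.027).

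Between the oils 3 of the 5 probe sets differed at 5% fat and 1 at 70% fat, and the Crot probe sets disagreed. With 5% fat, Cpt1a was lower with corn than with olive oil by a log2 difference of -1.01 ± 0.26 (2.02-fold, adjusted p = 0.0158), as was Crot J02844_s_at at -1.51 ± 0.32 (adjusted p = 0.00619) and Slc25a20 at -0.48 ± 0.15 (adjusted p = 0.0392). Cpt2 was at -0.30 ± 0.11 (adjusted p = 0.0906) and Crot U26033_at at 0.55 ± 0.29 (adjusted p = 0.215). That is 3 of 5 lower with corn oil, where 9.36% of all probe sets were lower (19.5% differed). Leaving out any 1 of 8 arrays ended the call of Slc25a20 (highest adjusted p 0.134), leaving out any 1 of 4 that of Cpt1a (highest adjusted p 0.0646), and a further quantile normalization left 0 of 5.

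With 70% fat, Crot J02844_s_at was lower with corn oil at -1.14 ± 0.32 (adjusted p = 0.0482, lost without any 1 of 9 arrays), where 4.55% of all probe sets were lower (8.51% differed). The other 4 did not pass, with Cpt1a at -0.15 (95% interval -0.70 to 0.41), Cpt2 at -0.11 (-0.36 to 0.14), Slc25a20 at -0.30 (-0.62 to 0.01) and U26033_at at 0.17 (-0.46 to 0.81). Both oil comparisons fell on arrays whose index differed by 1.06 at 70% fat and by 1.64 at 5% fat. With the index as a covariate 0 of 5 members and 0 of all probe sets passed by limma in either oil comparison. At 5% fat J02844_s_at was then at 0.01 and Slc25a20 at 0.11, on the other side of 0. As the index did not overlap between the oils, this fit cannot tell oil and index apart. Some markers of several cell types differed between the oils at 5% fat, and others of the same lists did not. Of the 6 hepatocyte markers, all measured, 3 were lower with corn oil by the test (8.49% of all genes were). These were Cps1 at -0.78, Apoa1 at -0.60 and Serpina1 at -0.31. The Cps1 probe sets ran from -2.52 to 0.14, and 1 of 3 passed. Those of Apoa1 ran from -0.77 to -0.44 (1 of 2 passed) and those of Serpina1 from -0.85 to 0.18 (2 of 3 passed). The array means of all 6 hepatocyte markers ran from -0.29 to -0.21 with 5% corn oil and from 0.03 to 0.10 with 5% olive oil. Of 6 measured stellate cell markers 3 were higher with corn oil (8.42% of all genes were). These were the collagens Col1a1 at 0.72, Col1a2 at 0.80 and Col3a1 at 0.41. The others, Des at -0.14, Acta2 at -0.05 and Pdgfrb at -0.15, lay below 0 and did not pass. Of the probe sets 1 of 4 passed for Col1a1 (0.18 to 2.29) and 1 of 2 for Col3a1 (-0.16 to 0.98). The stellate array means ran from 0.04 to 0.16 with 5% corn oil and from -0.25 to -0.05 with 5% olive oil. The Kupffer cell markers C1qb (-0.57) and C1qc (-0.38) were lower, 2 of 6 measured. Ptprc (0.40), 1 of 5 measured lymphocyte markers, was higher. The rest of both lists did not pass. In the Kupffer list Cd14 (-0.44) and Lyz2 (-0.07) lay below 0, and Clec4f (0.19) and Csf1r (0.10) above it. In the lymphocyte list Cd4 (-0.15) lay below 0, and Cd3g (0.11), Cd8a (0.12) and Cd79b (0.30) above it. In the endothelial list Kdr was higher (0.56) and Pecam1 lower (-0.42), and in the cholangiocyte list Krt19 was higher (0.38) and Epcam lower (-0.60), out of 3 measured in each. At 70% fat 1 of 6 hepatocyte markers, Cps1 (-0.55), was lower with corn oil by the test, as were 3.51% of all genes. The others lay between -0.16 and -0.01. Of 6 measured stellate cell markers 1, Col1a2 (0.52), was higher, as were 3.42% of all genes. Col1a1 (0.16), Col3a1 (0.04) and Des (0.04) lay above 0, Acta2 (-0.04) and Pdgfrb (-0.07) below it, none past the test. Of the 3 Cps1 probe sets, which ran from -1.67 to 0.03 there, 1 passed. The part of these markers in the result was not tested.

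The difference between the probe sets of Crot on the same array separated the oils completely. J02844_s_at minus U26033_at was between -1.45 and -0.07 on the 6 corn oil arrays and between 0.73 and 1.16 on the 6 olive oil arrays. The means were -0.71 ± 0.51 with corn oil and 0.98 ± 0.16 with olive oil (SD, n = 6 each), a difference of -1.69 (two-sided exact permutation p = 0.00216, the smallest it can be, adjusted 0.0108 over 10 relations). As a row of the fit over all probe sets it differed between the oils by -1.31 ± 0.19 at 70% fat (adjusted p = 0.00359) and by -2.06 ± 0.19 at 5% fat (adjusted p = 8.54e-05). Between fat levels it differed by 0.74 ± 0.19 with corn oil (adjusted p = 0.0668) and by -0.01 ± 0.19 with olive oil (adjusted p = 0.999). The index, whose part in this was not tested, was higher on all 6 corn oil arrays than on all 6 olive oil arrays. It is made from centred values, so its sign has no absolute meaning. A probe set named with _s_at can bind more than 1 transcript, so which Crot transcripts each probe set reads is uncertain.

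**Figure D3:**
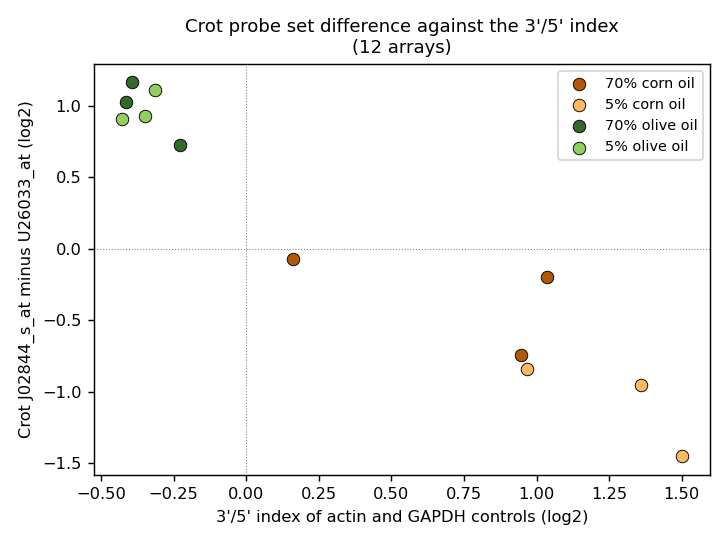
Crot J02844_s_at minus U26033_at on each of the 12 arrays (vertical axis, log2) against the 3'/5' index of the control probe sets (horizontal axis, log2). The 6 olive oil arrays lie at upper left, with differences of 0.73 to 1.16, and the 6 corn oil arrays lie below 0, with pool 2 of 70% corn oil nearest to 0 on both axes among them.

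The effect of fat did not differ between the oils past the test for any member. The corn oil minus the olive oil effect was 0.87 ± 0.36 for Cpt1a (limma adjusted p = 0.39, 95% interval 0.08 to 1.66), the only member with an unadjusted p under 0.05. It was 0.19 ± 0.16 for Cpt2, 0.17 ± 0.21 for Slc25a20, 0.37 ± 0.45 for Crot J02844_s_at and -0.38 ± 0.41 for U26033_at. Of all 8740 probe sets 0% passed by limma (1028 at an unadjusted p under 0.05).

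The neighbouring steps of the pathway were read from lists of genes, with 1 value per gene and p-values adjusted over 4736 genes. In the fat effect over both oils 1.08% of genes rose and 1.1% fell. The list of the matrix enzymes that oxidise the imported acyl-CoA had 15 of 19 genes measured, of which 5 rose and 0 fell, with a median of 0.21 beside 0.01 over all genes. Eci1, an enoyl-CoA isomerase for unsaturated fatty acids, rose by 1.09 ± 0.07, Decr1, the dienoyl-CoA reductase for polyunsaturated ones, by 0.88 ± 0.11 and Hadha, the alpha subunit of the trifunctional protein, by 0.49 ± 0.07. Of the 4 Eci1 probe sets, at 0.25 to 2.06, 2 passed in the fit on all probe sets. The medium-chain dehydrogenase Acadm rose by 0.49 ± 0.11 and the thiolase Acaa2 by 0.48 ± 0.11. The dehydrogenases for longer chains did not pass, with Acadvl at 0.21 ± 0.06 (adjusted p = 0.107) and Acadl at 0.01 ± 0.07 (adjusted p = 0.973), nor did Hadhb, the partner of Hadha, at 0.85 ± 0.24 (adjusted p = 0.099).

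In peroxisomes, where Crot acts, 4 of 11 measured genes rose and 0 fell, with a median of 0.23. These were Ech1, an isomerase of dienoyl-CoA, at 1.23 ± 0.16, Ehhadh, the bifunctional enzyme, at 1.03 ± 0.17, Pex11a, which acts in peroxisome division, at 1.03 ± 0.14 and the thiolase Acaa1b at 0.89 ± 0.17. Decr2, the peroxisomal dienoyl-CoA reductase, was at 0.64 ± 0.19 (adjusted p = 0.132) and Hsd17b4 at 0.19 ± 0.07 (adjusted p = 0.186). Of the 4 Hsd17b4 probe sets, at 0.07 to 0.37, 1 passed in the fit on all probe sets.

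Before the shuttle, of 12 measured genes of fatty acid release, uptake and activation 1 rose and 1 fell. Slc27a2, a fatty acid transport protein with acyl-CoA synthetase activity, rose by 0.47 ± 0.08 (adjusted p = 0.005). It rose with corn oil by 0.73 ± 0.11 (adjusted p = 0.00331) and was at 0.21 ± 0.11 with olive oil (adjusted p = 0.679). The acyl-CoA synthetase Acsl5 fell by 0.60 (-0.60 ± 0.10, adjusted p = 0.00731), while Acsl1, the main synthetase of liver, was at 0.34 ± 0.09 (adjusted p = 0.0608). Of the 2 Acsl5 probe sets, at -0.68 and -0.51, 1 passed in the fit on all probe sets. Acsl4 was at 0.24 ± 0.08 and the transporter Cd36 at 0.14 ± 0.14, neither past the test. Of 6 measured genes of malonyl-CoA turnover 1 fell: Acaca, the acetyl-CoA carboxylase of lipogenesis, at -0.27 ± 0.05 (adjusted p = 0.0136), with -0.05 ± 0.07 for corn oil alone and -0.49 ± 0.07 for olive oil alone. Acacb, the carboxylase whose malonyl-CoA is held to act on Cpt1, was at -0.18 ± 0.08 (adjusted p = 0.292), and the AMP-activated kinase subunits Prkaa2 and Prkab1 were at -0.34 ± 0.16 and -0.03 ± 0.06. Prkaa2 was at -0.90 with corn oil and 0.21 with olive oil, and Prkab1 at 0.22 and -0.27, none of them past the test.

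Of 19 measured regulators 0 passed in the fat effect over both oils by limma on 1 value per gene (4 at an unadjusted p under 0.05). Ppara was at 0.17 ± 0.07 (adjusted p = 0.311) and Rxrg, a retinoid X receptor, at 0.34 ± 0.08 (adjusted p = 0.0521). Of the 3 Rxrg probe sets, at 0.25 to 0.50, 1 passed in the fit on all probe sets. Foxa3, Hnf4a and Cebpa lay between 0.05 and 0.12, and Thrb and Cebpb at -0.07 and -0.15. Slc22a5, the plasma membrane carnitine transporter and the 1 measured gene of 6 for carnitine supply, was at 0.38 ± 0.15 (adjusted p = 0.268), and Cpt1b, the muscle form of carnitine palmitoyltransferase 1, was at 0.19 ± 0.06 (adjusted p = 0.13). Of the 2 Cpt1b probe sets, at 0.14 and 0.25, 1 passed in the fit on all probe sets. Of ketone body synthesis 2 of 4 genes were measured, with Acat1 at 0.36 ± 0.12 (adjusted p = 0.203) and Bdh1 at 0.05 ± 0.13 (adjusted p = 0.9). For Crat, carnitine acetyltransferase, the annotation gave no probe set of its own.

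**Figure D4:**
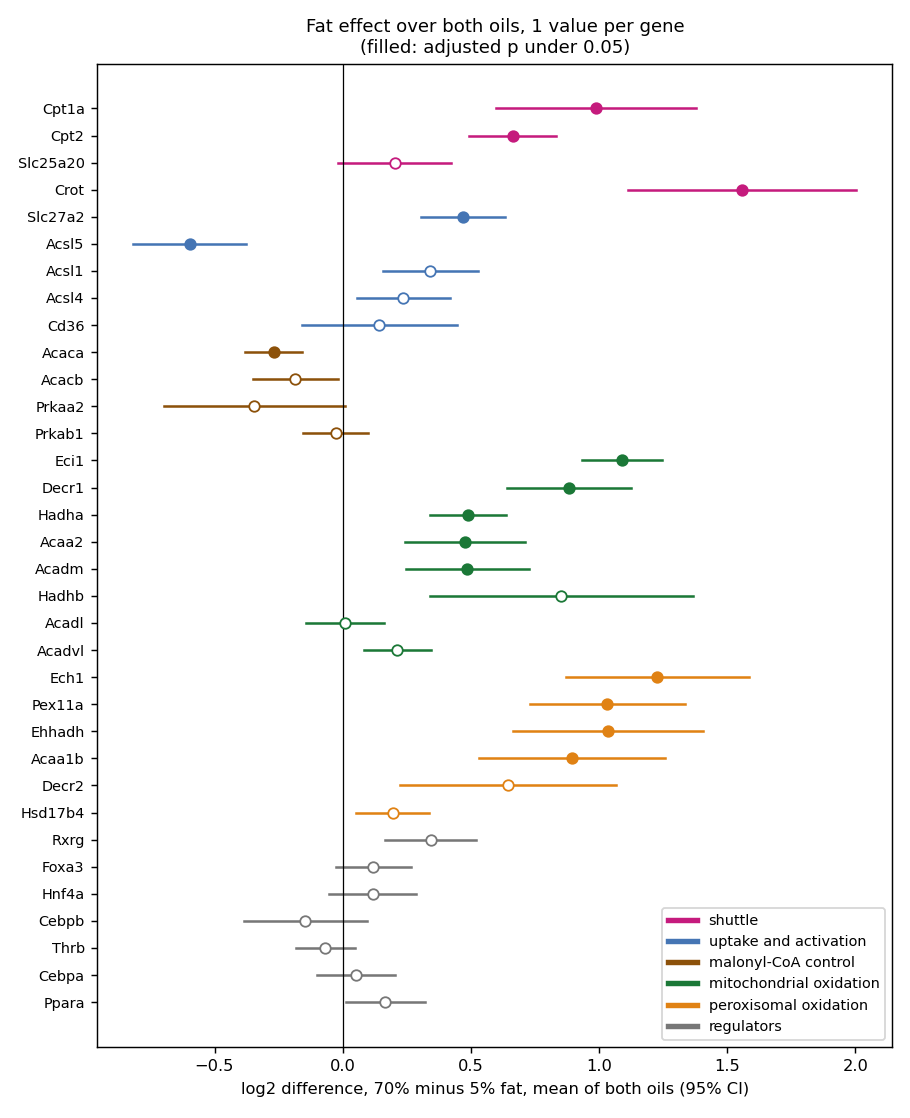
Log2 difference between 70% and 5% fat, averaged over both oils, with its 95% confidence interval for the shuttle genes and for genes of 5 neighbouring lists, with 1 value per gene and filled where the adjusted p was under 0.05. Crot has the largest difference at 1.56, Acsl5 and Acaca are below 0, and no regulator is filled.

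Likeness of pattern was measured as the root mean square difference over the 12 arrays between genes each centred on its mean, and it takes in both the shape and the size of the changes. Nearest to Cpt1a, whose own deviations measured 0.68, were Cyp2c6v1 (0.38), Eci1 (0.40) and Slc4a4 (0.41), and Cpt2 held rank 5 of 4735 genes (0.44). Nearest to Cpt2, with own deviations of 0.37, were Aco1 (0.14), Hadha (0.15) and Impa2 (0.18). The ranks were not the same both ways: for Cpt2, Slc25a20 held rank 261, Cpt1a rank 3416 and Crot rank 4339. Crot, at 0.89, lay nearest to Cyp2b2 (0.33), Pex11a (0.37) and Cyp2e1 (0.40), with Cpt2 at rank 15, Cpt1a at 28 and Slc25a20 at 100. Slc25a20, at 0.28, lay nearest to Tdo2 (0.127), Lyn (0.127) and Hibadh (0.132), and the nearest shuttle gene to it, Cpt2, held rank 1769.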

How the data were processed

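Per the labels' protocols, liver RNA was column-purified, and biotin-labelled aRNA made from 8 ug of it was read on single-colour arrays. The authors deposited log2 values made with GCOS and RMA, per the submitters' processing notes, with no version given. No header names the log base, which is 2 in RMA. The median of each of the 8799 probe sets was 0 within 1e-06, so the table holds differences and no level or signal over background, and no filter on dim probe sets could be set. There were 0 columns of other samples. The 59 array controls were left out of the tests. Of the 8740 others, 7006 had 1 gene symbol, 308 several and 1426 none in the platform annotation. Symbols were updated through the gene identifier to GRCr8 for 6985, and 21 kept the older symbol.

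Tests used limma 3.58.1 in R 4.3.3, with a mean for each diet, 8 residual degrees of freedom and eBayes without a trend. P-values were two-sided and adjusted over all rows by Benjamini-Hochberg within each of 6 contrasts, with a threshold of 0.05. Errors beside differences are standard errors (SE) of that fit. A gene's value was the mean of its probe sets. The code was tested on simulated data. The members and lists were chosen with earlier results of these data known. Named were all member probe sets, up to 6 genes of a list with a probe set called in any contrast, in order of the p over both oils (the first 2 by that p where fewer than 2 were called), some genes always looked up and the 3 genes nearest in pattern to each member. The alternatives were a further quantile normalization, each array centred, a trend with robust moderation, array weights, the index as a covariate, the pool number as a block, fits on both groups alone, 1 value per gene and leaving out each array. For arrays, their number limits the precision.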

Additional observations from a re-analysis of the deposited data

How the results depend on the processing

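Over both oils 4 of 5 passed under each alternative run except the further quantile normalization (3) and 1 value per gene (3 of 4 genes), and 4 passed without any 1 array. With corn oil 3 of 5 passed, against 0 after the further quantile normalization, 0 with the index as a covariate, 1 on the arrays of both groups alone, 2 with array weights, and 1 to 4 without 1 array. With olive oil 1 passed, against 3, 3, 0 with each array centred, 2 with a trend and robust moderation and 2 with 1 value per gene, and 0 to 3 without 1 array. Between the oils at 70% fat 1 differed, against 0 with each array centred, a trend and robust moderation, array weights, the index, both groups alone or 1 value per gene, and 0 to 1 without 1 array. At 5% fat 3 differed, against 0 after quantile normalization, 0 with the index and 1 to 3 without 1 array. There the index turned Crot J02844_s_at to 0.0102 and Slc25a20 to 0.11. The index did not overlap between the oils, so the fit with it cannot tell oil and index apart, and the causes were not tested. For the interaction 0 members passed throughout.

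Arrays of different diets share only a pool number: deviations of same-numbered arrays correlated between -0.19 and 0.23 over 18 pairs. With that number as a replicate block 4, 2, 4, 1 and 3 members passed in the comparisons of corn oil, olive oil, both oils, 70% fat and 5% fat. Over all 8740 probe sets the counts moved too. With corn oil 184 passed, against 51 after quantile normalization, 40 with the index and 53 on both groups alone. With olive oil 38 passed, against 98, 64 and 97, 22 with each array centred and 138 with array weights. Over both oils 199 passed, against 123 with the index. Between the oils 744 differed at 70% fat, against 0 with the index and 334 on both groups alone, and 1704 at 5% fat, against 0 with the index and 2632 with array weights. For the interaction 0 passed, against 2 with array weights and 1 with the block. Without 1 array these counts ran from 59 to 348, 10 to 69, 116 to 233, 311 to 1162, 1115 to 2065 and 0 to 10.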

Other observations

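Like Crot, other genes had probe sets on both sides of 0 between the oils, in the whole table as well as among oxidation genes. This was observed after the values were seen, and the differences between probe sets of these other genes were not tested. At 5% fat, corn minus olive oil, 7 of the 11 genes with several probe sets in both oxidation lists had probe sets on both sides of 0, a share of 63.6%, beside 50.9% of all 1565 named genes with several probe sets. The widest spans were those of Etfdh (-2.16 to 0.40), Abcd3 (-1.13 to 1.16) and Hsd17b4 (-1.36 to 0.67), followed by Scp2 (-1.32 to 0.16), Hadha (-1.10 to 0.14), Eci1 (-1.13 to 0.08) and Decr1 (-0.99 to 0.14). In the fat effect over both oils the probe sets of Etfdh (-0.46 to 0.65) and Scp2 (-0.08 to 0.09) also lay on both sides of 0, while those of the other 5 were all above 0. Whether the 3'/5' index has a part in this was not tested.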
